A study of Mus musculus with 18 samples.

Results

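The miR-23/27/24 miRNAs are 5 mature 3p arms, mmu-miR-23a-3p, mmu-miR-23b-3p, mmu-miR-27a-3p, mmu-miR-27b-3p and mmu-miR-24-3p, taken by name from a table of 459 miRNAs bound to Argonaute 2 in the mouse distal colon. All 5 were listed, and all 5 passed the filter on low values. They were measured by HEAP, a CLIP method that captures Halo-tagged Argonaute 2 (Ago2) from UV-crosslinked tissue and sequences the small RNAs and RNA fragments bound to it. The G12D libraries came from mice of genotype Halo-Ago2/+; Fabp-Cre/+; K-Ras-G12D/+, which carry an oncogenic K-Ras allele. The WT libraries came from Halo-Ago2/+; Fabp-Cre/+ mice, so that both genotypes carried the tagged Ago2 and the Fabp-Cre transgene, and only G12D mice carried the mutant allele. All mice were C57BL/6, 8 to 12 weeks old, and the colon was scraped to enrich for epithelium before crosslinking at 400 mJ/cm2, 3 times. The G12D and WT groups comprised 3 miRNA and 3 pulldown mRNA libraries each, and 6 further libraries, of input RNA, were left out. Whether separate mice gave separate libraries is not stated in the labels, so p-values rest on the spread between libraries and cannot be read as covering the spread between mice.

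A miRNA is cut from a hairpin in a longer transcript, and the strand that Ago2 keeps guides it to RNAs that pair with the seed, the bases at positions 2 to 8. Mammals have a pair of related loci, each with a miR-23, a miR-27 and a miR-24 hairpin that can be made from 1 transcript, so members of a cluster share their production up to the hairpin. In human and mouse cells miR-27 is known for repressing regulators of lipid metabolism, miR-23 for repressing glutaminase, and miR-24 for repressing cell cycle and apoptosis genes.

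The a cluster, with Mir23a, Mir27a and Mir24-2, lay within 404 bases at chr8:84208518-84208921 on the plus strand of GRCm38, and apart from these hairpins RefSeq lists only the miRNA gene Mir3074-2 there. The b cluster, with Mir23b, Mir27b and Mir24-1, spanned 792 bases at chr13:63300484-63301275, also on the plus strand, inside the span of the protein-coding gene Aopep. No merged Ago2 peak lay within 2000 bases of either cluster. Mature sequences for 4 of the 5 members were matched by name in RefSeq (GRCm38.p6), and miR-23b-3p was not matched. They are shown 5′ to 3′, with the seed in capitals, because the results turn on which members share a seed and how far the reads of paralogs can be told apart.
miR-23a-3p: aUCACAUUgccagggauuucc
miR-27a-3p: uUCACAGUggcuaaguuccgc
miR-27b-3p: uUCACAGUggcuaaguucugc
miR-24-3p: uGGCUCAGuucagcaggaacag
The miR-27 paralogs have the same seed, UCACAGU, and are identical at 20 of 21 bases. Their single difference, counted from the 5′ end of miR-27a-3p, is C19U, so that reads shorter than 19 bases cannot separate them. The authors' rule for such reads is not given in the sources used here. The same mature miR-24-3p, with the seed GGCUCAG, is encoded at chr8:84208875-84208896 in the a cluster and chr13:63301251-63301272 in the b cluster, so its reads cannot be assigned to a locus. The 5p arms of the miR-24 hairpins differ between the loci, and they are shown because they are the reads that tell the a cluster's miR-24 hairpin from the b cluster's.
miR-24-2-5p: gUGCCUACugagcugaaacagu
miR-24-1-5p: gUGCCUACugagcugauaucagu
Over 22 bases compared position by position without a gap, counted from the 5′ end of miR-24-1-5p, these arms differ by U17A, U19C, C20A, A21G and G22U. Their first 16 bases are the same. miR-24-1-5p is 23 bases long and miR-24-2-5p 22, and both end in CAGU. The later differences in this list thus come with the difference in length and are not separate substitutions.

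The miRNA libraries held 337788 to 433245 reads in G12D and 437439 to 535932 in WT, and each deposited value is a read number divided by 1 size factor per library, called normalized reads below. The epithelial miRNAs fixed as markers were all in the table, and their summed level was 117300 to 141800 normalized reads in G12D against 83560 to 120900 in WT. Of these 8, 3 were called higher, against 9.06% of all tested miRNAs. Both endothelial markers were far lower, with sums of 46.6 to 67.2 in G12D and 41.1 to 55.9 in WT. Blood cell markers, 5 of 7 listed, summed to 821 to 1071 in G12D and 534 to 734 in WT, without overlap. Muscle markers, 2 of 4 listed, summed to 85.3 to 157 in G12D and 61.6 to 258 in WT, and stromal markers, 3 of 5 listed, to 45.3 to 73.9 in G12D and 46.4 to 131 in WT. Only 2 blood cell, 1 muscle and 2 stromal markers passed the filter and could be tested, along with both endothelial markers. None of these was called in either direction. No listed marker was at 0 in every library, and the part of these cell types in the results below was not tested. In scraped tissue, fewer cells of a type and less RNA per cell cannot be told apart.

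In the G12D colon Ago2 held 2.08-fold more miR-27a-3p than in WT by mean normalized reads, while the 4 other members did not pass the test. The question asked of the table was whether the clusters, or the members of a cluster, moved together. miR-27a-3p was the only called member, and its a-cluster neighbour miR-23a-3p was among those not called. The passenger arm of the a cluster's miR-24 hairpin, miR-24-2-5p, was lower in G12D.

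miR-27a-3p had 28847, 26554 and 25426 normalized reads in the G12D libraries, against 10704, 18201 and 10046 in the WT libraries. All G12D values lay above all WT values, and WT replicate 2 stood apart from the 2 other WT libraries. The means were 26942 ± 1743 in G12D and 12984 ± 4530 in WT (SD, n = 3 each). The log2 fold change was 1.10 ± 0.19 (SE; limma on log2(normalized reads + 1), adjusted p = 5.57e-05, Benjamini-Hochberg over the 254 miRNAs tested). In limma the SE and p-value also draw on the spread of other miRNAs of similar level. Without WT replicate 2 the log2 fold change was 1.38 (limma, adjusted p = 1e-09), and without limma's variance trend the call was lost at an adjusted p of 0.0585. The authors' deposited table gives 0.97 ± 0.26 for miR-27a-3p, with an adjusted p of 0.00664. Of the tested miRNAs, 13 had a larger log2 fold change than miR-27a-3p, and among the 62 whose mean level reached 1000 normalized reads only miR-205-5p did.

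miR-27b-3p, which shares the miR-27 seed but comes from the b cluster, had 9434, 10124 and 8454 normalized reads in G12D against 7111, 6621 and 6120 in WT. The groups did not overlap, with means of 9338 ± 839 in G12D and 6617 ± 495 in WT (SD, n = 3 each). The log2 fold change of 0.50 ± 0.19 missed the threshold (limma, adjusted p = 0.0657), and it passed without WT replicate 1 (limma, adjusted p = 0.0381).

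miR-24-3p, the product of both clusters, had 7865, 8035 and 7000 normalized reads in G12D against 6876, 5904 and 6592 in WT. The groups did not overlap, with means of 7633 ± 555 in G12D and 6457 ± 500 in WT (SD, n = 3 each), but the log2 fold change of 0.24 ± 0.20 did not pass (limma, adjusted p = 0.440).

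The miR-23 paralogs lay close to each other in every library. miR-23a-3p had 3092, 3584 and 2863 normalized reads in G12D against 3429, 2355 and 2821 in WT, and its log2 fold change was 0.16 ± 0.23 (limma, adjusted p = 0.703). miR-23b-3p had 3092, 3115 and 3008 in G12D against 3297, 2399 and 2585 in WT, and its log2 fold change was 0.17 ± 0.23 (limma, adjusted p = 0.679). For both, the genotypes overlapped, and in WT the first library was the highest.

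**Figure D1:**
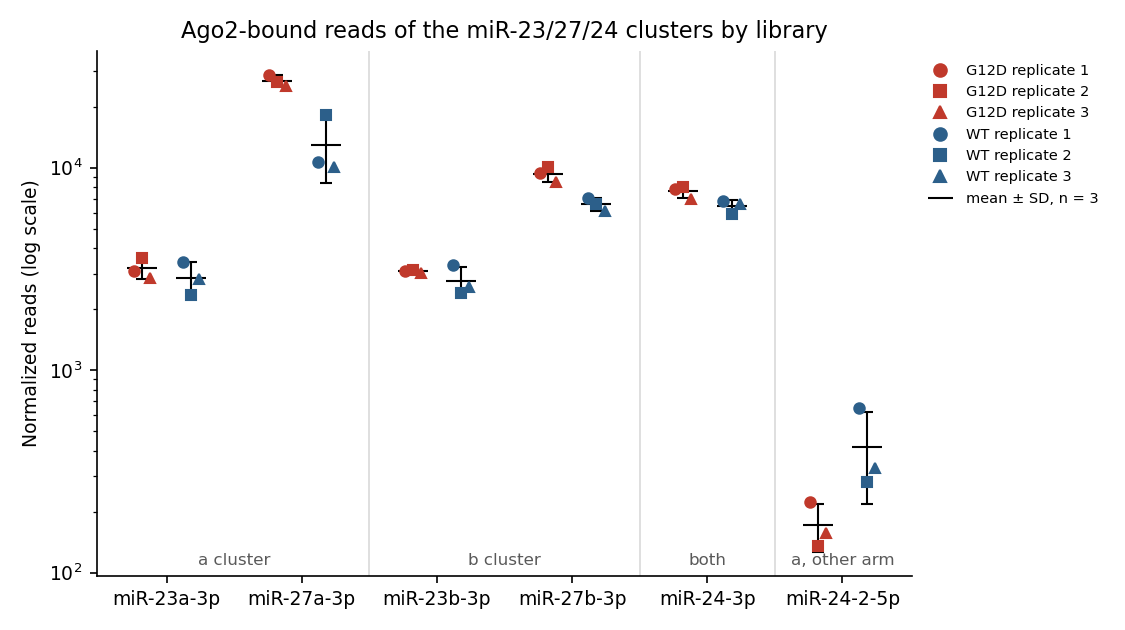
Normalized reads (log axis) of the 5 members and of the miR-24-2-5p arm in each miRNA library, G12D in red left of WT in blue; bars show the mean ± SD of 3 libraries. The 3 G12D values of miR-27a-3p lie between 25426 and 28847, above the WT values of 10046 to 18201, while the genotypes overlap for both miR-23 members.

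Counted together, 1 of the 5 members was called higher, against 9.06% of all tested miRNAs, and 0 were called lower, against 6.69%. Groups did not overlap for 3 of the 5, against 29.5% of all tested miRNAs. The median log2 fold change of the members was 0.24, and that of all 254 tested miRNAs was 0.11. The direction of the small differences depended on the scaling. With every library set to the same total, the median of all tested miRNAs was -0.26, and the members' log2 fold changes were 0.74 for miR-27a-3p, 0.13 for miR-27b-3p, -0.12 for miR-24-3p and -0.20 for both miR-23 members. Such a change of library totals shifts all miRNAs of a library alike. Quantile normalization, which does not, put miR-27a-3p at 0.65, 0.64 above the median of all tested miRNAs.

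The order of the levels was the same in both genotypes: miR-27a-3p, miR-27b-3p, miR-24-3p, miR-23a-3p and miR-23b-3p, from high to low. In G12D the ranges of neighbours in this order overlapped only for the miR-23 pair, whereas in WT they also overlapped for miR-27b-3p and miR-24-3p. By mean level miR-27a-3p was the 4th of the 459 miRNAs, ranking between 2 and 11 in single libraries. miR-27b-3p ranked between 14 and 19, miR-24-3p between 16 and 21, miR-23a-3p between 34 and 41, and miR-23b-3p between 36 and 44. These are levels of Ago2-bound reads, in which ligation and amplification differ between sequences, so the order is one of reads and not of molecules.

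As a share of all reads of a library, a measure that does not use the size factors, the 5 members made up 10.4% ± 0.791 in G12D and 8.46% ± 1.12 in WT (SD, n = 3 each). The G12D libraries ranged from 9.94% to 11.3% and the WT libraries from 7.58% to 9.73% (exact permutation test, two-sided, p = 0.1, the smallest possible with 3 against 3). miR-27a-3p alone made up 6.24%, 5.13% and 5.41% of the G12D libraries, against 2.58%, 4.99% and 2.88% of the WT libraries. Its G12D shares all lay above its WT shares, but G12D replicate 2 exceeded WT replicate 2 by little. No Wilson 95% interval of these shares was wider than 0.163 percentage points, so the spread between libraries was far larger than the counting error, which is all that these intervals cover.

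Without miR-27a-3p, the 4 other members together made up 4.81% ± 0.269 in G12D and 4.98% ± 0.231 in WT (SD, n = 3 each; exact permutation p = 0.5). The a pair, miR-23a-3p with miR-27a-3p, took 6.25% ± 0.575 of reads in G12D and 4.25% ± 1.21 in WT (exact permutation p = 0.1). The b pair, miR-23b-3p with miR-27b-3p, took 2.57% ± 0.135 in G12D and 2.49% ± 0.0194 in WT (exact permutation p = 0.5). The 2 cluster pairs thus differed in that the a pair's shares did not overlap between genotypes and the b pair's did, a difference that was tested only through the ratios of single members, given next.

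A ratio of 2 members within a library is free of the size factor. For the paralogs of miR-27, the ratio miR-27a-3p to miR-27b-3p was 3.06, 2.62 and 3.01 in G12D against 1.51, 2.75 and 1.64 in WT. WT replicate 2 lay among the G12D libraries, and the groups overlapped. The log2 difference of 0.61 ± 0.24 did not pass (limma on the log2 ratios of all 32131 pairs of tested miRNAs, adjusted p = 0.101), and without WT replicate 2 it was 0.88 (limma, adjusted p = 0.00729). Put as a share, miR-27a-3p supplied 75.4%, 72.4% and 75.05% of miR-27 reads in G12D, against 60.1%, 73.3% and 62.1% in WT, with no Wilson 95% interval wider than 1.40 percentage points (exact permutation p = 0.2).

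For the paralogs of miR-23 the ratio miR-23a-3p to miR-23b-3p was 1.00, 1.15 and 0.952 in G12D against 1.04, 0.982 and 1.09 in WT. It stayed near equality in all 6 libraries. The log2 difference was -0.0085 ± 0.28 (limma, adjusted p = 0.989), and its standard error leaves room for a change in either direction. Reads counted as miR-23a-3p made up 50%, 53.5% and 48.8% of miR-23 reads in G12D, against 51.0%, 49.5% and 52.2% in WT. In G12D replicate 1 both were given 2258 reads, and since it is not known how reads shared by the paralogs were counted, these shares may not measure what each locus made.

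Within the a cluster, the ratio miR-27a-3p to miR-23a-3p was 9.33, 7.41 and 8.88 in G12D against 3.12, 7.73 and 3.56 in WT. Here too WT replicate 2 fell inside the G12D range, while the other WT libraries lay well below. The log2 difference was 0.95 ± 0.30 (limma, adjusted p = 0.0461). Within the b cluster, the ratio miR-27b-3p to miR-23b-3p was 3.05, 3.25 and 2.81 in G12D against 2.16, 2.76 and 2.37 in WT, which did not overlap but did not pass either, with a log2 difference of 0.33 ± 0.26 (limma, adjusted p = 0.438).

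Set against the shared miR-24-3p, miR-27a-3p had ratios of 3.67, 3.31 and 3.63 in G12D against 1.56, 3.08 and 1.52 in WT, a log2 difference of 0.86 ± 0.25 (limma, adjusted p = 0.0356). miR-27b-3p had ratios to miR-24-3p of 1.20, 1.26 and 1.21 in G12D against 1.03, 1.12 and 0.928 in WT, which did not pass (log2 difference 0.25 ± 0.23; limma, adjusted p = 0.507). The ratio of miR-23a-3p to miR-24-3p averaged 0.416 ± 0.0272 in G12D and 0.442 ± 0.0514 in WT, and that of miR-23b-3p 0.404 ± 0.0229 in G12D and 0.426 ± 0.0469 in WT (SD, n = 3 each). Neither passed, with adjusted p-values of 0.871 and 0.886 by limma.

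Of the 10 pairs of members 3 were called, against 11.4% of all pairs, which share miRNAs and are not independent. All 3 contained miR-27a-3p, which is in 4 of the 10 pairs: its ratios to miR-23a-3p, to miR-24-3p and to miR-23b-3p, the last with a log2 difference of 0.94 ± 0.28 (limma, adjusted p = 0.0399). Among the 6 pairs without miR-27a-3p the lowest adjusted p was 0.427 (limma). For the 3 called pairs the exact permutation p-values were 0.2 for the ratio to miR-23a-3p, 0.1 for that to miR-24-3p and 0.1 for that to miR-23b-3p. The smallest possible value is 0.1, so this test cannot reach the threshold. The 3 limma calls are close to the threshold. Each was lost when any single library other than WT replicate 2 was left out, with adjusted p-values of 0.0853 to 0.183 for the ratio to miR-23a-3p, 0.0863 to 0.133 for that to miR-24-3p and 0.09995 to 0.161 for that to miR-23b-3p (limma), and without WT replicate 2 the values were 0.000856, 0.000754 and 0.00116.

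**Figure D2:**
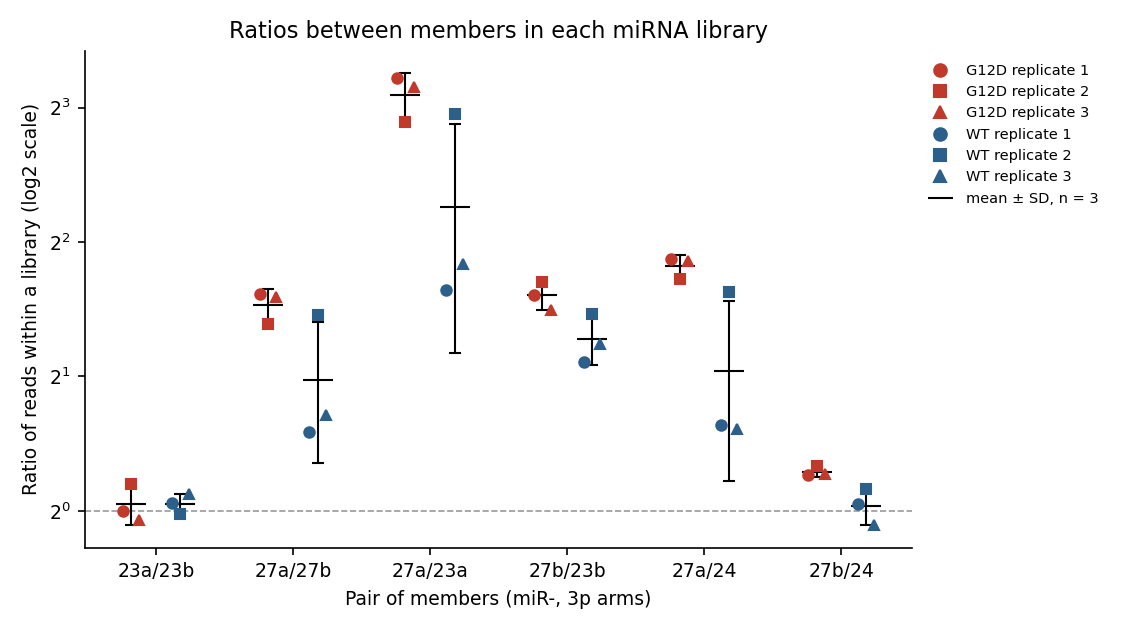
Ratio of reads of 2 members within each miRNA library (log2 axis), G12D in red left of WT in blue; bars show the mean ± SD of the ratios of 3 libraries, and the dashed line marks equal reads. The miR-23a-3p to miR-23b-3p ratio stays between 0.952 and 1.15 in all libraries, and in the ratios with miR-27a-3p WT replicate 2 lies apart from the other WT libraries.

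The other arms of the hairpins were rarer in Ago2. miR-24-2-5p, which comes from the a cluster only, had 223, 136 and 157 normalized reads in G12D against 651, 280 and 327 in WT. The groups did not overlap, and WT replicate 1 was the highest. The means were 172 ± 45.5 in G12D and 419 ± 202 in WT (SD, n = 3 each), which put the log2 fold change at -1.21 ± 0.35 (limma, adjusted p = 0.0161). Without WT replicate 1 this was -0.84 and no longer passed (limma, adjusted p = 0.132). The authors' deposited table gives -1.14 for miR-24-2-5p, with an adjusted p of 0.00735.

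Against the guide arm of the same hairpin, miR-24-2-5p made up 2.76%, 1.66% and 2.20% of the reads of both arms in G12D and 8.65%, 4.52% and 4.72% in WT, and no Wilson 95% interval was wider than 1.24 percentage points. The denominator includes miR-24-3p from the b cluster, so this is not the arm ratio of the a hairpin alone. The log2 difference of miR-24-2-5p to miR-24-3p was -1.45 ± 0.38 (limma over all pairs, adjusted p = 0.01999). This call was lost without G12D replicate 2, G12D replicate 3 or WT replicate 1, at adjusted p-values of 0.0798, 0.0646 and 0.0809 (limma). miR-24-2-5p was also lower relative to the a-cluster guides, by a log2 difference of -2.31 to miR-27a-3p (limma, adjusted p = 0.00395) and -1.37 to miR-23a-3p (limma, adjusted p = 0.0325). The 3 tested products of the a cluster alone, miR-27a-3p, miR-23a-3p and miR-24-2-5p, were thus higher, not called and lower in G12D. miR-24-3p, the product of both clusters, was not called.

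The b cluster's arm, miR-24-1-5p, was seen in 5, 4 and 4 reads in G12D and 23, 15 and 9 reads in WT, below the filter. miR-24-2-5p accounted for 96.2% to 97.3% of the 5p reads of the 2 miR-24 hairpins in G12D and 96.5% to 97.98% in WT, so that nearly all such reads carried the a cluster's sequence in both genotypes. miR-27b-5p had 1, 0 and 7 reads in G12D and 13, 8 and 10 in WT, and miR-23b-5p had 1, 2 and 0 in G12D and 1, 7 and 3 in WT. miR-23a-5p had 0 reads in each G12D library and 1, 2 and 1 in WT. These 4 arms fell under the filter and were not tested in the main fit, and miR-27a-5p was not listed by that name among the measured miRNAs.

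**Figure D3:**
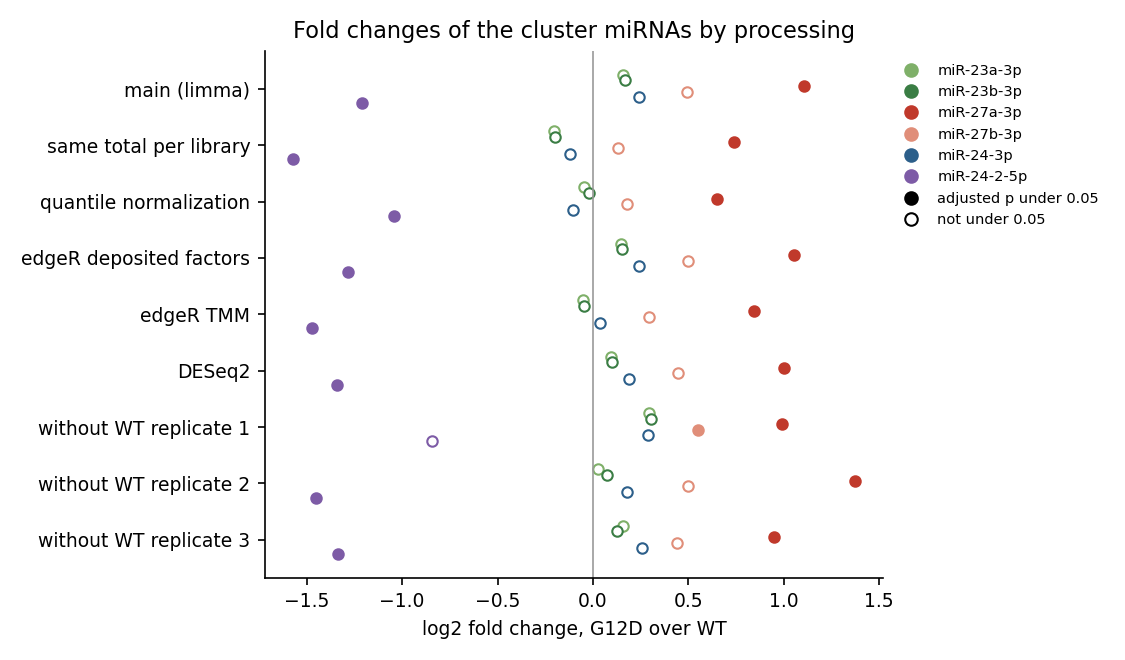
Log2 fold change, G12D over WT, of the 5 members and of miR-24-2-5p under 9 ways of processing the miRNA table; filled points have an adjusted p under 0.05. miR-27a-3p stays between 0.65 and 1.38 and filled throughout the settings plotted, while the miR-23 and miR-24-3p points lie on either side of 0. The fit without limma's variance trend, in which miR-27a-3p was not called (limma, adjusted p = 0.0585), is not plotted.

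Profiles over the 6 libraries were compared by the root mean square difference of centred log2 values, among miRNAs whose mean level reached 100 normalized reads. These were the 5 members and 122 other miRNAs. This is a description, and the libraries share their depth and genotype. The profile nearest to miR-27a-3p was that of miR-140-3p (0.189), followed by miR-205-5p (0.228) and miR-210-3p (0.234), whereas its paralog miR-27b-3p lay at 0.414 and its neighbour miR-23a-3p at 0.633. The log2 fold change of miR-140-3p was 1.09 (limma, adjusted p = 0.00344). Leaving the members aside, miR-27b-3p lay nearest to miR-26a-5p (0.0776), miR-192-5p (0.0939) and miR-92a-3p (0.0959), and miR-24-3p to miR-93-5p (0.0617), miR-425-5p (0.0780) and miR-378a-3p (0.117). On the same terms, miR-23a-3p lay nearest to miR-16-5p (0.0766), miR-93-5p (0.0971) and miR-203-3p (0.129), and miR-23b-3p to miR-378a-3p (0.0847), miR-93-5p (0.106) and miR-425-5p (0.110). The miR-23 members were 0.0931 apart, each the second nearest to the other among all candidates, and miR-24-3p came 4th for both, at 0.117 from miR-23a-3p and 0.107 from miR-23b-3p.

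The pulldown mRNA libraries show where Ago2 sat on RNA with a match to these seeds. They held 148927, 723937 and 247358 reads in merged peaks in G12D and 100978, 54401 and 148770 in WT, so the WT libraries were shallower. A seed match is the authors' annotation of a merged peak, counted here when it covers bases 2 to 8: AATGTGA in the RNA written as DNA for miR-23, ACTGTGA for miR-27 and CTGAGCC for miR-24. The match tells neither paralogs nor clusters apart, and no genome was used here, so the sites themselves are not shown. Without the input libraries, a change in a peak cannot be told apart from a change in its transcript.

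Of 5554 merged peaks, 95 held a miR-23 match (1.71%), 102 a miR-27 match (1.84%) and 183 a miR-24 match (3.295%), 374 in all, with few shared. Full 8-mer matches were 63 of the miR-23 peaks, 64 of the miR-27 peaks and 81 of the miR-24 peaks. By the authors' classes, 69.5% of the miR-23 peaks, 63.7% of the miR-27 peaks and 56.3% of the miR-24 peaks lay in 3′ UTRs, against 54.7% of all peaks with an annotated class.

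Peaks with each seed held more higher than lower calls, as did all tested peaks. With a miR-23 match, 79 peaks passed the filter, of which 29 were called higher in G12D (36.7%) and 6 lower (7.59%). All 4438 tested peaks were called higher in 36.2% and lower in 12.7%. With a miR-24 match, 149 passed, with 44 higher (29.5%) and 16 lower (10.7%). With a miR-27 match, 88 passed, with 23 higher (26.1%) and 8 lower (9.09%). The median log2 fold changes were 1.05 for miR-23, 0.78 for miR-27 and 0.82 for miR-24 peaks, against 1.05 for all tested peaks. These shares are given beside those of all peaks as a description, and the differences from them were not tested. They depended on which matches were counted: with 6-mer and 7-mer A1 matches included, 105 of 284 tested miR-27 peaks were higher and 20 lower, with a median log2 fold change of 1.22, beside 53 higher and 15 lower of 151 miR-23 peaks and 72 higher and 25 lower of 238 miR-24 peaks.

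The balance of higher and lower calls followed the scaling. With edgeR's TMM factors the calls were 16 higher and 14 lower for miR-23, 13 and 20 for miR-27, and 26 and 27 for miR-24, against 1093 and 894 of all tested peaks, whose median was 0.47. With quantile normalization they were 11 and 13 for miR-23, 9 and 14 for miR-27, and 25 and 22 for miR-24, against 873 and 802 of all tested peaks, whose median was 0.16. DESeq2 gave 16 and 12, 13 and 17, and 28 and 25 for the same families, against 1130 and 771 of all. miR-27 peaks thus had more lower than higher calls under these 3 scalings, while all tested peaks kept more higher calls, and the difference between them was not tested. Without G12D replicate 2, the deepest library, 11 miR-23 peaks, 12 miR-27 peaks and 26 miR-24 peaks were called higher, and 5, 7 and 11 lower, against 977 higher and 433 lower of all. Among peaks found in both genotypes' own lists, 1 of 13 miR-23 peaks was higher and 4 lower, 4 of 22 miR-27 peaks were higher and 2 lower, and 3 of 40 miR-24 peaks were higher and 9 lower, against 105 higher and 207 lower of 828 such peaks in all.

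**Figure D4:**
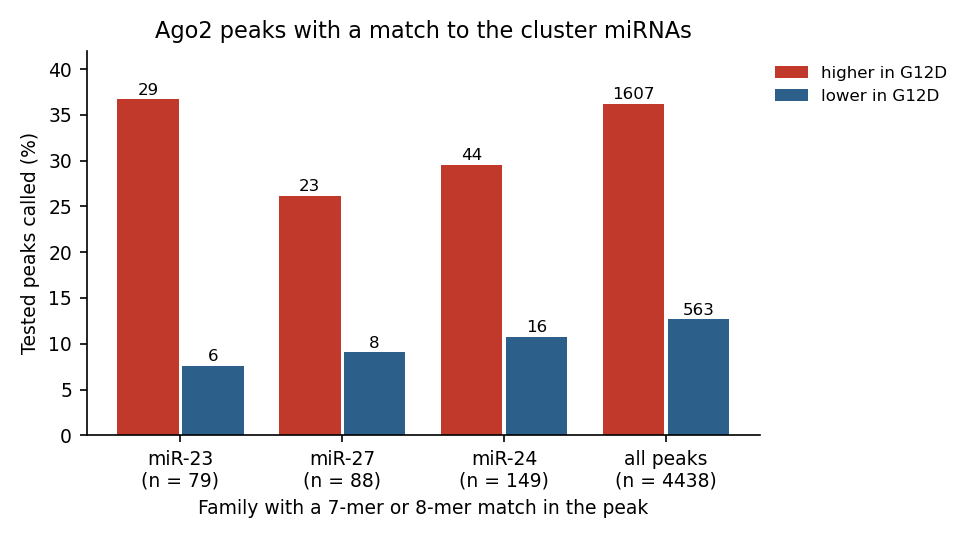
Percent of tested peaks called higher (red) or lower (blue) in G12D than in WT, for peaks with a 7-mer or 8-mer match to each seed and for all tested peaks; the number of peaks stands above each bar. Higher calls make up 36.7%, 26.1% and 29.5% of the miR-23, miR-27 and miR-24 peaks, against 36.2% of all.

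As a share of all reads in peaks, peaks with a miR-27 match held 1.40% ± 0.249 in G12D and 0.902% ± 0.145 in WT (SD, n = 3 each), and the groups did not overlap (exact permutation p = 0.1). Those with a miR-24 match held 2.94% ± 0.0920 in G12D and 2.60% ± 0.191 in WT, also without overlap (exact permutation p = 0.1). Those with a miR-23 match held 1.24% ± 0.337 in G12D and 0.921% ± 0.199 in WT, with overlap (exact permutation p = 0.3). In normalized reads, the summed miR-27 peaks overlapped between genotypes, at 1913 to 2496 in G12D and 1324 to 2048 in WT. The summed miR-24 peaks did too, at 4436 to 5336 in G12D and 4078 to 5352 in WT. A few peaks weigh on the miR-27 share: the 3 highest, at Muc2, Cpeb4 and Sema7a, averaged 272, 223 and 175 normalized reads in G12D against 68.4, 46.0 and 9.25 in WT. The peaks were merged from lists of which the G12D list alone supplied 77.0% of all peaks, 82.1% of the miR-23 peaks, 71.6% of the miR-27 peaks and 74.3% of the miR-24 peaks, and the part of this in the shares was not tested.

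Among miR-23 peaks, the highest was an 8-mer match in the 3′ UTR of Aldh1l1, a folate enzyme, at chr6:90590736-90590790. It had 39.3, 61.5 and 91.9 normalized reads in G12D against 140, 249 and 296 in WT, giving a log2 fold change of -1.83 ± 0.41 (limma over all tested peaks, adjusted p = 0.00380). A peak in an exon of Pigr, the receptor that carries IgA across the epithelium, was lower as well, with 19.6, 25.8 and 29.4 in G12D against 219, 177 and 369 in WT (log2 fold change -3.25; limma, adjusted p = 0.000178). It also holds matches to miR-181 and miR-224. In both peaks every G12D library lay below every WT library.

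The peak in the 3′ UTR of Slc38a2, an amino acid transporter, overlapped between genotypes and did not pass, with means of 136 ± 84.5 in G12D and 83.7 ± 55.1 in WT (SD, n = 3 each; limma, adjusted p = 0.266). Lower calls also covered Ppp1r15b, which encodes a subunit of an eIF2α phosphatase, with a mean of 5.32 ± 2.38 in G12D and 46.8 ± 11.1 in WT, and Reg3b, an antimicrobial lectin, with 2.99 ± 0.875 in G12D and 18.4 ± 10.6 in WT (SD, n = 3 each). The largest rises were in peaks with almost no WT reads. The peaks named next were in the G12D list alone, passed the filter through their G12D values and were chosen for the size of their rise. Their low WT reads are thus part of how they were picked. Blcap had 646 reads in G12D and 3 in WT, a depth-corrected ratio of 47.9 with a 95% counting interval of 16.3 to 233. Sgpp2, a sphingosine 1-phosphate phosphatase, had 191 reads in G12D and 2 in WT, a ratio of 21.2 (5.80 to 177). Rap2b, a small GTPase, had 64 reads in G12D and 0 in WT, and was at least 4.75-fold higher when the WT group is set to a floor of 3 reads.

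Among miR-24 peaks, the highest lay in an exon of Elf3, an epithelial transcription factor, at chr1:135254918-135254962. It had 56.7, 45.6 and 43.8 normalized reads in G12D against 701, 380 and 728 in WT, and the log2 fold change was -3.55 ± 0.36 (limma, adjusted p = 0.000114). miR-24 is the only family with a 7-mer match in that peak. The 8-mer match in the 3′ UTR of Lmbr1l was in a peak with 79.6, 102 and 123 in G12D against 461, 319 and 541 in WT (log2 fold change -2.10; limma, adjusted p = 0.000697). The peak in an exon of Daam1, a formin that builds actin filaments, was lower by a smaller amount, with means of 149 ± 50.4 in G12D and 326 ± 85.7 in WT (SD, n = 3 each; limma, adjusted p = 0.0245). The Elf3 and Daam1 peaks were in the authors' G12D list alone, although both had more normalized reads in WT.

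Further lower miR-24 peaks were in Ampd3, an AMP deaminase, with means of 62.9 ± 20.6 in G12D and 290 ± 31.6 in WT, and in Duox2, an oxidase of the epithelial surface, with 6.59 ± 2.71 in G12D and 33.4 ± 11.0 in WT (SD, n = 3 each). The largest rises again had few or no WT reads, in peaks of the G12D list alone that passed the filter through their G12D values. They were picked for the size of the rise in the same way. Erbb3, a receptor of the EGF receptor family, had an intronic peak with 217 reads in G12D and 0 in WT, at least 16.1-fold higher. Ugcg, the enzyme that makes glucosylceramide, had 106 reads in G12D and 0 in WT, at least 7.86-fold higher. Golm1, a Golgi membrane protein, had 237 reads in G12D and 1 in WT, a depth-corrected ratio of 52.7 (9.37 to 2091).

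miR-27 peaks, whose match cannot tell miR-27a-3p from the uncalled miR-27b-3p, moved in both directions. The highest, an 8-mer match in the 5′ UTR class of Muc2, the main mucin of the colon, had 244, 242 and 329 normalized reads in G12D against 82.8, 69.6 and 52.8 in WT (log2 fold change 1.98; limma, adjusted p = 0.000753). The largest fall among them was at Alas1, the first enzyme of haem synthesis, with 0, 5.98 and 6.46 in G12D against 97.7, 46.4 and 96.7 in WT (log2 fold change -4.37; limma, adjusted p = 0.000787). The genotypes did not overlap for either gene, and the Muc2 peak also holds a match to the miR-15 and miR-16 family and the Alas1 peak one to miR-29. The Alas1 peak was in the authors' G12D list alone, although it had more normalized reads in WT.

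Genes known as targets in other tissues were mostly without such a peak, as were genes with peaks in general. Of 2568 genes with any peak, 92 had a peak with a miR-23 match, 100 with a miR-27 match and 170 with a miR-24 match. Whether the listed genes differ from this share was not tested. Of 14 genes listed for miR-23, 7 had any peak and 0 had a peak with the match. Of 18 listed for miR-27, 7 had any peak and 1, Sema6a, had the match, with means of 23.3 ± 7.71 in G12D and 25.2 ± 17.5 in WT (SD, n = 3 each; limma, adjusted p = 0.7995). Of 16 listed for miR-24, 8 had any peak and 2 had the match. At Acvr1b, an activin receptor, the peak had 10.9, 42.9 and 34.5 in G12D against 65.8, 57.96 and 61.9 in WT (log2 fold change -1.25 ± 0.48; limma, adjusted p = 0.0504). At Furin, the protease that activates many secreted proteins, it had 27.3, 27.03 and 28.7 in G12D against 48.8, 43.5 and 72.2 in WT (log2 fold change -0.93 ± 0.37; limma, adjusted p = 0.0548). Neither passed, although both had all G12D libraries below all WT libraries, and both peaks also hold matches to other families. A gene with no matching peak may still be bound, since detection depends on the level of its transcript and on depth.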

How the data were processed

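HEAP miRNA and pulldown mRNA libraries from G12D and WT distal colon were analysed, with 3 libraries for each genotype and kind. STAR 2.5.2b, DESeq2, mm10 and GRCm38 are named in the submitters' processing notes. How peaks were called, how reads were counted and where reads shared by paralogs went is not given in the sources used here. The deposited signal values are reads per mature miRNA or merged peak divided by 1 size factor per library. Multiplied back, 100% of values were whole to within 0.01 of a read, and all table columns were mapped (0 left over). The authors' deposited tables also give log2 fold changes and p-values, and the deposited peak lists carry a score, which was not used.

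The main test was limma 3.58.1 in R 4.3.3 with its variance trend, fitted to log2(normalized reads + 1) over miRNAs with a mean of at least 10 (254 of 459) or peaks with a mean of at least 5 (4438 of 5554), with Benjamini-Hochberg adjustment and a threshold of 0.05. This scale understates changes of low features. On the recovered reads with the deposited factors, edgeR 4.0.16 called 42 miRNAs against 40 for limma, and 2273 peaks against 2170. DESeq2 1.42.0 was a further alternative. Ratios of all pairs of tested miRNAs were tested the same way. Single values were compared by exact two-sided permutation tests in SciPy 1.17.1. Scripts were tested on simulated data. Reads carry no stated molecular identifiers, so intervals (Wilson or exact, 95%) and floors of 3 reads over a group cover counting error only. Replicate numbers were not used as a block in the main fit, and a fit with the block is given as an alternative below. Deviations of same-numbered libraries were also compared, but so few libraries cannot settle whether these share an origin.

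The members, marker lists, target lists and tests were chosen with earlier results of these data known. Named peaks were, per seed, the 3 with the highest mean, the 3 with the largest called, non-overlapping change in each direction, and those in listed target genes. Only some of the miR-27 peaks are described.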

Additional observations from a re-analysis of the deposited data

How the results depend on the processing

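miR-27a-3p stayed higher in G12D under all 17 alternatives (log2 fold change 0.65 to 1.38) and past the threshold under 16, the exception being no variance trend (1.10, limma adjusted p = 0.0585). When scaled to 1 common library total, by quantile normalization and by edgeR's TMM factors, miR-23a-3p turned to -0.20, -0.045 and -0.052, and miR-23b-3p to -0.20, -0.021 and -0.044, and miR-24-3p turned to -0.12 and -0.10 under the first pair of these. None of these passed the threshold under any setting. The median of all tested miRNAs was 0.11, and -0.26, 0.011, -0.13 and 0.031 with the same total, quantile normalization, TMM and DESeq2, and the higher and lower calls went with it: 23 and 17, against 6 and 31, 19 and 21, 11 and 26, and 13 and 21. The cause was not tested.

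Leaving out each library in turn gave miR-27b-3p log2 fold changes of 0.44 to 0.57, miR-24-2-5p -1.45 to -0.84, and log2 ratio differences of 0.44 to 0.88 for miR-27a-3p to miR-27b-3p, 0.696 to 1.35 for miR-27a-3p to miR-23a-3p, -0.088 to 0.049 for miR-23a-3p to miR-23b-3p, -0.15 to 0.0081 for miR-23a-3p to miR-24-3p and -0.13 to 0.014 for miR-23b-3p to miR-24-3p. It gave 20 to 56 miRNA calls, 1395 to 5564 pair calls and 1410 to 2275 peak calls. The ratio of miR-27a-3p to miR-23a-3p, 0.95 throughout, was not called with no filter, a higher filter, no variance trend or the replicate block (limma adjusted p = 0.0532, 0.0650, 0.209 and 0.111). With the higher filter, no variance trend and the block, its ratios to miR-24-3p (0.0501, 0.224 and 0.0929) and to miR-23b-3p (0.0552, 0.199 and 0.0964) were not called either. The ratio of miR-24-2-5p to miR-24-3p was not called without the trend or with the block (0.0646 and 0.0560), and miR-24-2-5p, -1.21, not with no variance trend or the block (0.0643 and 0.0557). A higher filter gave 24 miRNA calls (166 tested), 1162 pair calls and 790 peak calls, no variance trend 18 miRNA calls, peaks in both lists 312 calls and 3′ UTR peaks 1062, where fewer features were tested except for the variance trend.

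With the replicate number as a block, 25 miRNAs and 1624 pairs were called. Deviations of same-numbered libraries correlated at -0.00031, -0.42 and -0.32 for miRNAs and 0.041, -0.036 and -0.0076 for peaks. Whether same-numbered libraries share an origin is not stated in the labels, and so few libraries cannot settle it. Depth limits the 5p arms other than miR-24-2-5p and the peaks with 0 to 3 WT reads.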
